A study of Homo sapiens with 8 samples.

Results

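The question addressed here was how interferon alpha and the induction of USP6 combine when RD-ES cells receive both, gene by gene. RD-ES is a Ewing sarcoma cell line, and the cells carried a stably introduced USP6 gene under doxycycline control, as a pool rather than a single clone. All 8 libraries of the series entered the comparison, in 4 groups of 2 replicates: untreated cells, interferon alpha at 1000 U/mL for 24 h, doxycycline, and doxycycline for 24 h followed by the same interferon treatment. All 4 groups were RD-ES/USP6 cells, so all carried the transgene. Cells without the transgene that received doxycycline were not analysed here, so effects of doxycycline and of USP6 cannot be told apart. The labels give no total time on doxycycline for the group without interferon, and a difference in exposure cannot be told apart from the interaction. Nothing in the labels says that the 2 replicates came from separate cultures, so a p-value measures only the spread between libraries, which may be technical.

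Type I interferon signals through its receptor and JAK kinases to STAT proteins, which pair with IRF9 to bind the interferon-stimulated response element (ISRE) of antiviral genes. STAT dimers and IRF1 act on a further set, through gamma-activated sites (GAS) and related elements, that includes guanylate-binding proteins and the chemokines read by the receptor CXCR3. Many chemokine and adhesion genes also carry sites for NF-kB, a transcription factor family held in check by inhibitors such as NFKBIA. USP6 is a deubiquitinating enzyme and an oncogene, activated by rearrangement in aneurysmal bone cyst and nodular fasciitis.

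For each of the 14601 genes with enough reads, the level with both treatments was set against 2 expectations made from the other 3 groups. If the treatments add, it equals the untreated level plus the separate changes, in CPM, the read count scaled to a common library size. If they multiply, it equals the untreated level times the separate folds. The log2 interaction is 0 where folds multiply, and was tested with the edgeR quasi-likelihood test. The linear interaction, called the excess over the sum and given in CPM, is 0 where changes add, and was tested with a Wald test on the fitted levels of the same edgeR model. A gene was called at an adjusted p under 0.05 over all tested genes.

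The promoters of some genes from both kinds of departure are shown as a description only. They are the 250 bases upstream of the RefSeq start (GRCh38.p14), 5′ to 3′ on the gene's strand. Capitals mark matches on either strand to the ISRE core (GAAA, any 2 bases, GAAA), to the GAS motif TTCNNNGAA or to the NF-kB consensus. CXCL10, CXCL11 and TNFSF10 were above the sum, and IFI6 and IFIT1 were below the product.
CXCL10, chr4:76023498-76023747, minus strand: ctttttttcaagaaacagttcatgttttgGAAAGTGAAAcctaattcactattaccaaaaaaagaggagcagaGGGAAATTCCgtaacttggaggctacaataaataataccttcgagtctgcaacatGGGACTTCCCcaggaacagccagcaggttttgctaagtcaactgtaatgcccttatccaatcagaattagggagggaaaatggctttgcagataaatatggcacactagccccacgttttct
CXCL11, chr4:76036071-76036320, minus strand: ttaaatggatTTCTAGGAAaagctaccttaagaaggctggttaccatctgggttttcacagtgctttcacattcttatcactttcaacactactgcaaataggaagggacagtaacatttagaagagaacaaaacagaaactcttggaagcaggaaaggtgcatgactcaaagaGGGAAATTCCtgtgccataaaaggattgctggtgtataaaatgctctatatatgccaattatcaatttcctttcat
TNFSF10, chr3:172523431-172523680, minus strand: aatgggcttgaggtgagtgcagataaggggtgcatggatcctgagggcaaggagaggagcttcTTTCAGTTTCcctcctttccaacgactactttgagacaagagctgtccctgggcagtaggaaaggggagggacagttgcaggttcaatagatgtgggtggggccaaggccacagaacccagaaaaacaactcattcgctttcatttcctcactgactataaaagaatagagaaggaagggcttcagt
IFI6, chr1:27672193-27672442, minus strand: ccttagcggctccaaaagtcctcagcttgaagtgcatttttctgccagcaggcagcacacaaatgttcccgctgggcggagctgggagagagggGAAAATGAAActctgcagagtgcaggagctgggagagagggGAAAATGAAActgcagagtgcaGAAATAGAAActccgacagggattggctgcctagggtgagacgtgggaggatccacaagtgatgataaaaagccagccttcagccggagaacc
IFIT1, chr10:89392373-89392622, plus strand: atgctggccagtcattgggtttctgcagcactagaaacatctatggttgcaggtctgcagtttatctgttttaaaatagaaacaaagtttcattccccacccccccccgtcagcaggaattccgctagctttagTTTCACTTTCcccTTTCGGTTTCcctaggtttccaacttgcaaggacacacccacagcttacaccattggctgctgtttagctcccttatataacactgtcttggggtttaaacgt
CXCL10 had 1 ISRE and 2 NF-kB matches, CXCL11 a GAS and an NF-kB match, TNFSF10 1 ISRE match, IFI6 3 ISRE matches and IFIT1 2. Of the genes below the product 21 had a promoter in the table, and 12 (57.1%) of these held the ISRE core, 7 (33.3%) the GAS motif and 4 (19.0%) the NF-kB consensus. Of the 27 genes above the sum with a promoter, 7 (25.9%) held the ISRE core, 5 (18.5%) the GAS motif and 11 (40.7%) the NF-kB consensus. Among 11352 tested genes with a promoter the shares were 2.56%, 5.66% and 11.7%, and among all 27305 promoters 3.07%, 6.78% and 9.57%. In EPSTI1, another gene below the product, the ISRE and GAS matches overlap. MX1, OAS1, HERC6, XAF1 and IRF9, also below the product, held no ISRE core. These matches are a description of the letters and were not tested.

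USP6, the induced gene, was read at 9.88 and 8.77 CPM untreated, 9.17 and 10.3 with interferon, 569 and 558 with doxycycline and 409 and 377 with both. The 4 libraries with doxycycline were all far above the 4 without it, as labelled, and those with both treatments were lower than those with doxycycline alone. Its linear interaction was -171 ± 28.5 CPM (Wald adjusted p = 0.034) and its log2 interaction -0.59 ± 0.16 (edgeR adjusted p = 0.91). The linear-scale call was lost without the second untreated library, either interferon library, either doxycycline library or either both-treatments library (-180.3 to -149 CPM), and also with transcript rows summed (Wald adjusted p = 0.088). Reads could be split between USP6 and its relatives USP32 and TBC1D3, and the part of the lower USP6 level in the other interactions was not tested.

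The genes called below the product of the folds were mostly antiviral genes, and those called above the sum included chemokines, guanylate-binding proteins, TRAIL and NF-kB targets. On the log scale 25 genes were called, 0.171% of those tested, with 24 lower (0.164%) and 1 higher, WARS (0.00685%). On the linear scale 44 were called, 0.301% of those tested, with 43 above the sum (0.295%) and 1 below it, USP6 (0.00685%). Only MX2 and WARS were called on both scales. At an unadjusted p under 0.05 there were 287 genes on the log scale and 343 on the linear scale. When each library was corrected for GC content and transcript length, the log-scale split was 9 higher and 39 lower, and with DESeq2 it was 7 and 36.

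The count of calls depended on single libraries. The 25 log-scale calls became 15 and 11 when untreated replicates 1 and 2 were left out in turn, 9 and 14 for interferon replicates 1 and 2, and 15 for doxycycline replicate 1. The 44 linear-scale calls became 8 without the first library of both treatments, 14 without the second, and 27 and 28 without interferon replicates 1 and 2. No called gene changed direction in any of these fits.

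**Figure D1:**
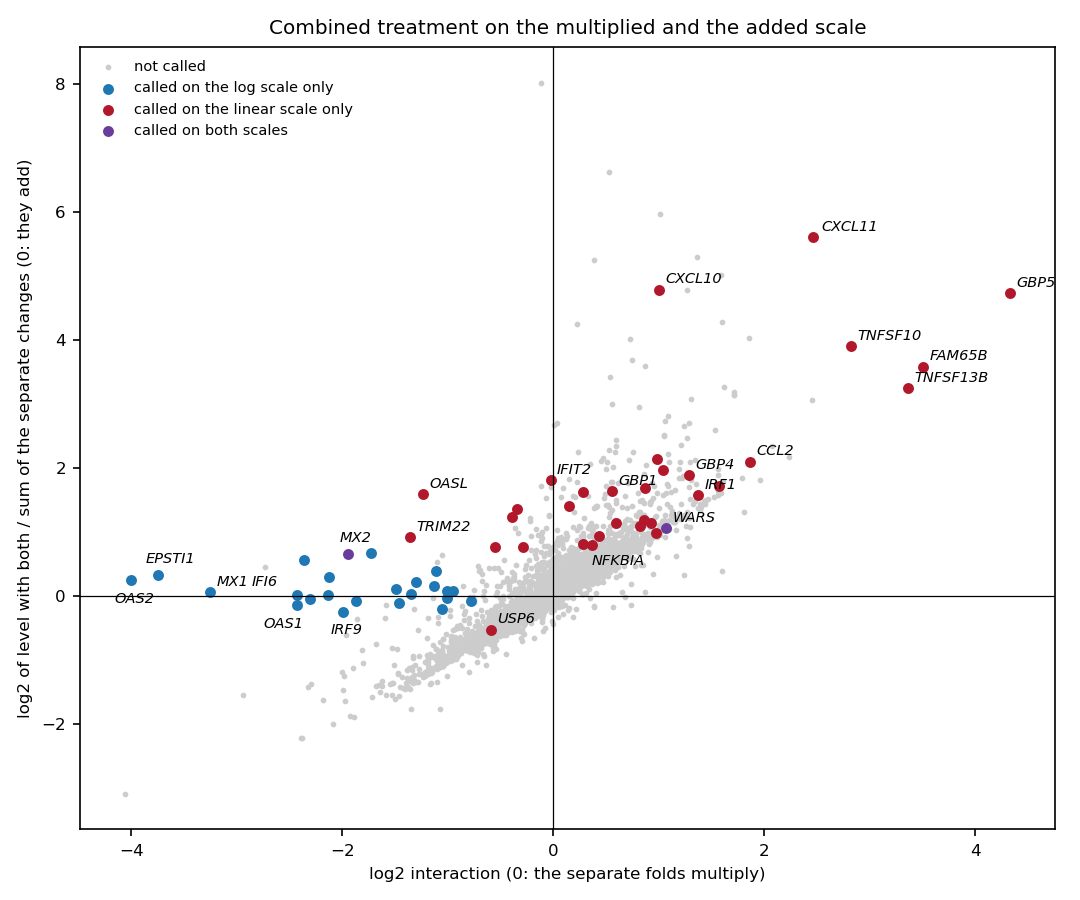
Each point is a gene with over 3 reads in every group, placed by its log2 interaction (horizontal axis, 0 where folds multiply) and by the log2 ratio of its level with both treatments to the sum of the separate changes (vertical axis, 0 where changes add). Genes called below the product lie to the left near a vertical value of 0, down to -4.001 for OAS2. WARS, called above the product, lies to the right at 1.07. Genes called above the sum lie high, with CXCL10 and CXCL11 among the highest called, while USP6, called below the sum, lies under 0.

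The 24 genes below the product were mostly antiviral effectors: 22 of them belong to a list of 60 tested antiviral interferon-stimulated genes. Their log2 interactions ran from -4.001 to -0.77. Interferon alone raised all 24, against 1.62% of tested genes, and doxycycline alone raised all 24, against 0.719%. These contrasts share the untreated libraries with the interaction, so their counts are set side by side only. With both treatments 4 of the 24 were higher than with interferon alone (edgeR test, 1.07% of tested genes). The log2 differences between these groups ran from -0.03 to 0.89 with a median of 0.31. Their levels with both treatments were between 0.847 and 1.603 times the sum of the separate changes, with a median of 1.05. The 95% interval of the excess over the sum held 0 for 17 of the 24 and lay above 0 for 7.

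OAS2, an oligoadenylate synthetase that activates RNase L, was read at 1.61 and 2.33 CPM untreated, 515 and 511 with interferon, 40.5 and 40.8 with doxycycline and 679 and 629.7 with both. Every interferon-treated library was far above the rest, and the libraries with both treatments lay above those with interferon alone. The separate folds multiply to an expected 10537 CPM and the separate changes add to 552 CPM. The log2 interaction was -4.001 ± 0.19 (edgeR adjusted p = 2.1e-06), and the level with both was 1.19 times the sum (95% interval 1.04 to 1.35). Between both treatments and interferon alone, OAS2 differed by 0.35 ± 0.09 on the log2 scale (edgeR adjusted p = 0.09). Between doxycycline alone and untreated cells the difference was 4.35 ± 0.16.

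MX1, a dynamin-like GTPase that blocks virus replication, was read at 8.26 and 6.98 CPM untreated, 899 and 928 with interferon, 83.8 and 80.1 with doxycycline and 1071 and 990.1 with both. The libraries with both treatments stood above those with interferon alone. Its log2 interaction was -3.25 ± 0.15 (edgeR adjusted p = 2.1e-06), and its level with both was 1.04 times the sum (95% interval 0.918 to 1.19). IFI6, an antiviral membrane protein of the endoplasmic reticulum, was read at 28.4 and 23.8 CPM untreated, 1642 and 1519.7 with interferon, 158 and 149.8 with doxycycline and 1748 and 1724 with both. Its 4 interferon-treated libraries lay close together, those with both treatments on top. The log2 interaction was -2.42 ± 0.15 (edgeR adjusted p = 1.8e-05), with a level 1.02 times the sum.

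Among the other synthetases, OAS1 was read at 14.2 and 17.5 CPM untreated, 489.7 and 532 with interferon, 91.8 and 86.9 with doxycycline and 531 and 532 with both. Its libraries with both treatments overlapped those with interferon alone, since the higher interferon value is not below the lower value with both. Its log2 interaction was -2.43 ± 0.15 (edgeR adjusted p = 1.8e-05). OAS3 had a smaller log2 interaction of -1.49 ± 0.23 (edgeR adjusted p = 0.032) from means of 88.1, 1278, 315 and 1626 CPM in the order untreated, interferon, doxycycline and both, an order kept for all such means. OAS3 lost its call without the second untreated library, either interferon library, either doxycycline library or either both-treatments library (-1.78 to -1.24), and with a stricter filter (edgeR adjusted p = 0.069), summed transcript rows (0.063) or the transcript row marked in the deposited table (0.064). OASL, the related member without synthetase activity, had means of 0.503, 14.1, 4.76 and 55.1 CPM and was above the sum by 36.8 ± 4.06 CPM (Wald adjusted p = 0.0022). OASL lost its call without either both-treatments library (35.5 to 38.5 CPM).

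In the IFIT family, which binds viral RNA and restricts its translation, IFIT1 and IFIT3 were called below the product, IFIT2 above the sum and IFIT5 on neither scale, and differences between members were not tested. IFIT1 was read at 17.3 and 14.7 CPM untreated, 566 and 659.7 with interferon, 106 and 89.4 with doxycycline and 927 and 787 with both. Its levels with both treatments were the highest of the 4 groups. It was below the product by a log2 interaction of -2.13 ± 0.19 (edgeR adjusted p = 0.00055) and stood at 1.23 times the sum (95% interval 1.04 to 1.47). IFIT3 was read at 9.88 and 6.62 CPM untreated, 264 and 274 with interferon, 54.3 and 46.2 with doxycycline and 535 and 464 with both. Here the levels with both treatments again lay well above those with interferon alone. IFIT3 had a log2 interaction of -1.72 ± 0.21 (edgeR adjusted p = 0.0074) and an excess over the sum of 188 ± 34.1 CPM that did not pass the test (Wald adjusted p = 0.056). IFIT3 lost its log-scale call without either interferon library (-2.03 to -1.44). IFIT2 was read at 9.50 and 8.05 CPM untreated, 83.9 and 89.5 with interferon, 45.4 and 42.2 with doxycycline and 462 and 391 with both. Its libraries with both treatments stood apart from all others. Its log2 interaction was -0.02 ± 0.16 (edgeR adjusted p = 1), and it was above the sum by 304 ± 21.5 CPM (Wald adjusted p = 0.00017), 3.50 times the sum. IFIT5 had a log2 interaction of -0.19 ± 0.18 (edgeR adjusted p = 1) and an excess of 28.3 ± 16.3 CPM (Wald adjusted p = 1).

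EPSTI1, an interferon-induced gene named for epithelial-stromal interaction, was read at 0.665 and 0.447 CPM untreated, 70.3 and 77.4 with interferon, 10.1 and 11.6 with doxycycline and 113 and 97.3 with both. Untreated cells had few reads, and the interferon-treated libraries were the highest. Its log2 interaction was -3.75 ± 0.30 (edgeR adjusted p = 0.00024), with a level 1.25 times the sum (95% interval 1.05 to 1.49). IFI27, a small hydrophobic interferon-induced protein, had means of 0.741, 173, 3.62 and 169 CPM and a log2 interaction of -2.31 ± 0.30 (edgeR adjusted p = 0.011). In IFI27 the libraries with both treatments overlapped those with interferon alone, and doxycycline changed it in interferon-treated cells by -0.03 ± 0.10. IFI27 lost its call without either untreated library, the first interferon library or the second doxycycline library (-2.54 to -2.08). IFI44L stood at 73.02, 1902, 375 and 2219 CPM with a log2 interaction of -2.14 ± 0.16 (edgeR adjusted p = 9.3e-05), and HERC6, of the HECT ubiquitin ligase family, at 7.08, 166, 27.4 and 176 CPM with one of -1.87 ± 0.18 (edgeR adjusted p = 0.0011). IFITM1, which restricts virus entry, stood at 35.7, 826, 98.3 and 827 CPM with a log2 interaction of -1.46 ± 0.20 (edgeR adjusted p = 0.016), with the call lost without the second untreated library, either interferon library, the second doxycycline library or the first both-treatments library (-1.65 to -1.27). IFITM1 shares sequence with IFITM2 and IFITM3, so its reads could be split between these genes.

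XAF1, which antagonises the caspase inhibitor XIAP, had means of 0.324, 58.2, 2.61 and 88.99 CPM and a log2 interaction of -2.36 ± 0.38 (edgeR adjusted p = 0.041). XAF1 was no longer called without each library in turn (-2.62 to -2.12), and also after the GC and length correction (edgeR adjusted p = 0.079) or with the marked transcript row (0.052). IRF9, the DNA-binding partner of the STAT proteins, was read at 5.89 and 6.44 CPM untreated, 71.4 and 59.1 with interferon, 27.8 and 27.7 with doxycycline and 68.6 and 78.4 with both. The 4 interferon-treated libraries overlapped whether or not doxycycline was given. IRF9 had a log2 interaction of -1.99 ± 0.20 (edgeR adjusted p = 0.0014), and its level with both was 0.847 times the sum (95% interval 0.711 to 1.01), the lowest ratio of the 24. ISG15, the ubiquitin-like modifier, was read at 16.3 and 11.7 CPM untreated, 285 and 324 with interferon, 27.3 and 50.1 with doxycycline and 148 and 284 with both, a wide spread with both treatments. Its log2 interaction of -1.96 ± 0.45 missed the threshold (edgeR adjusted p = 0.33).

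**Figure D2:**
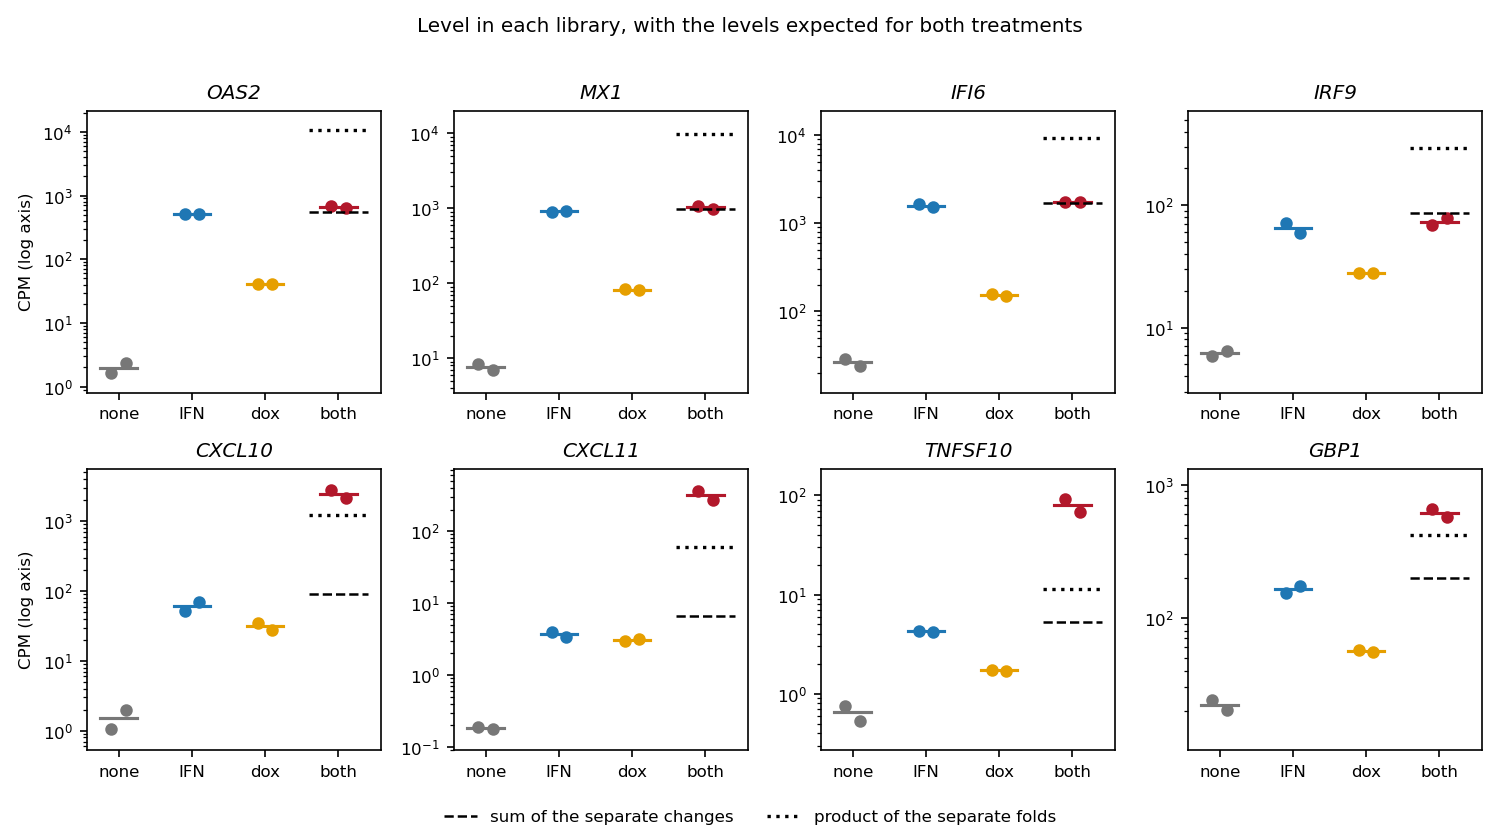
CPM on a log axis in each of the 8 libraries for 8 genes (points are libraries, coloured bars group means of 2 libraries); at the group with both treatments the dashed line is the sum of the separate changes and the dotted line the product of the separate folds. In OAS2, MX1, IFI6 and IRF9 the points with both treatments lie near the dashed line and below the dotted one, while in CXCL10, CXCL11, TNFSF10 and GBP1 they lie above the dashed line.

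MX2 was called both below the product and above the sum. MX2, a relative of MX1 that restricts HIV, was read at 0.95 and 0.805 CPM untreated, 94.3 and 96.4 with interferon, 5.67 and 5.61 with doxycycline and 164 and 152 with both. Its libraries with both treatments were above all others. Its log2 interaction was -1.94 ± 0.25 (edgeR adjusted p = 0.0091) and its excess over the sum 57.8 ± 8.15 CPM (Wald adjusted p = 0.011). MX2 lost the log-scale call without either untreated library or the first interferon library (-2.06 to -1.81) and the linear-scale call without either interferon library or either both-treatments library (52.4 to 63.8 CPM). TRIM22, an antiviral ubiquitin ligase, had means of 1.97, 109, 10.4 and 223 CPM, an excess of 105 ± 12.6 CPM (Wald adjusted p = 0.0043) and a log2 interaction of -1.36 ± 0.24 that missed the threshold (edgeR adjusted p = 0.072). Its linear-scale call was lost without the first both-treatments library (92.7 to 119 CPM). RSAD2, or viperin, which makes a chain-terminating nucleotide, was read at 3.89 and 3.85 CPM untreated, 110.2 and 131 with interferon, 13.3 and 12.3 with doxycycline and 334 and 276 with both, highest in both libraries with both treatments. Its excess was 176 ± 17.9 CPM (Wald adjusted p = 0.0013) and its log2 interaction -0.39 ± 0.23 (edgeR adjusted p = 1).

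Over the whole antiviral list 22 of 60 genes were below the product, 0 above it, and 6 above the sum (IFIT2, MX2, OASL, RSAD2, RTP4 and TRIM22). The median log2 interaction was -0.86, or -0.95 for the 59 members above 3 reads in every group, and the median log2 ratio to the sum was 0.09. Over all tested genes 0.164% were below the product and 0.295% above the sum, and the medians were -0.01 and 0.01. Interferon alone raised all 60 members of the list, against 1.62% of tested genes. The shares over all tested genes are therefore not those of genes that respond to interferon.

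**Figure D3:**
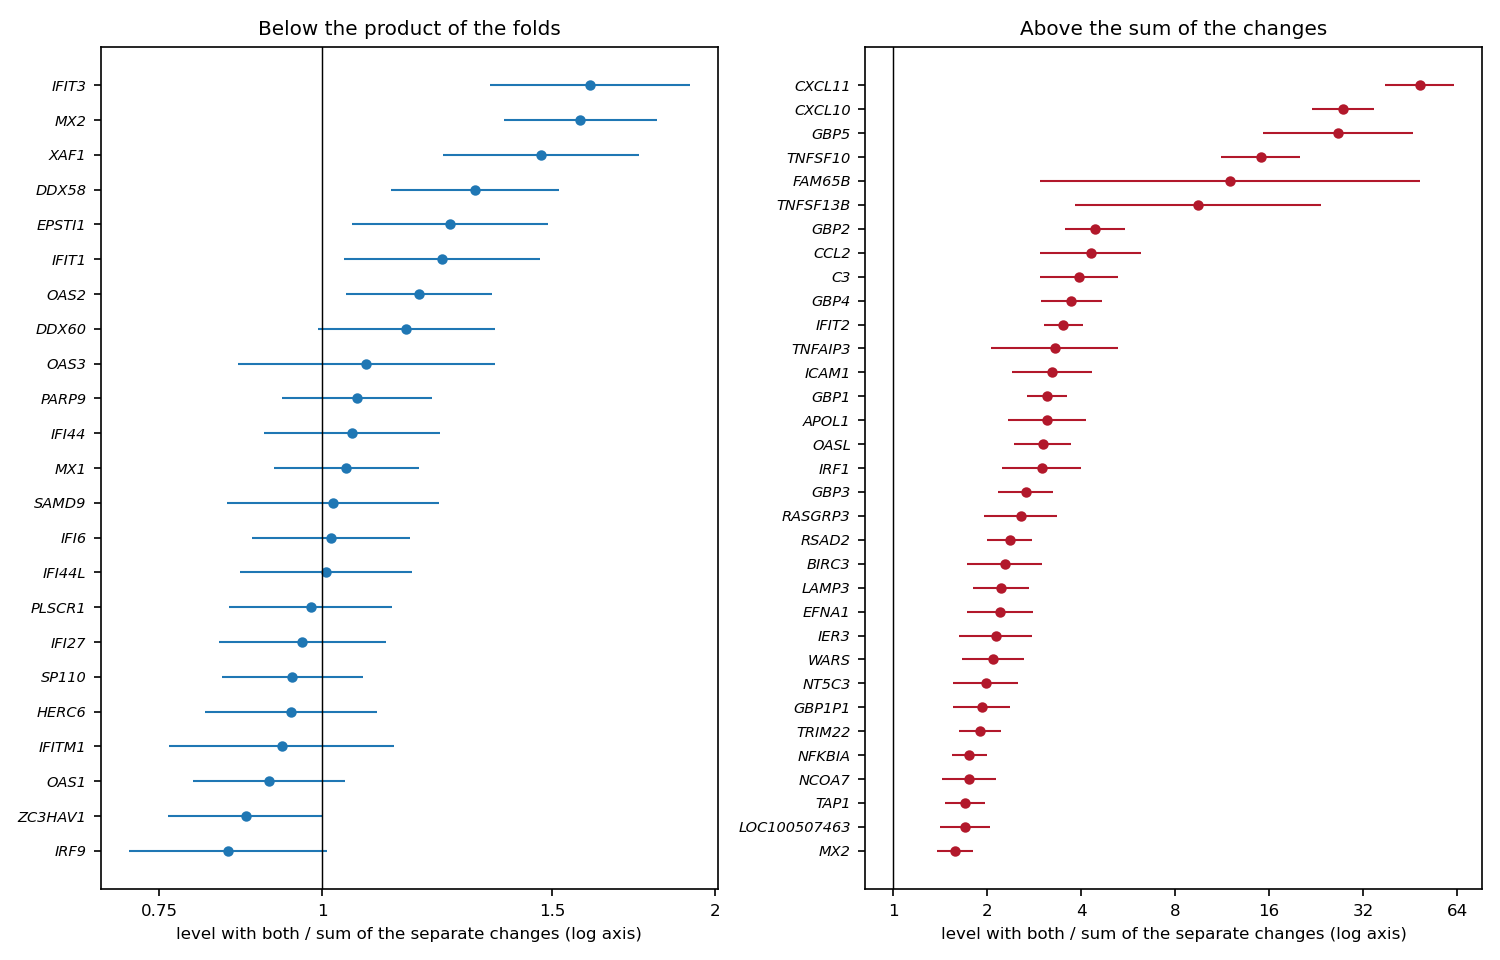
Level with both treatments divided by the sum of the separate changes, on a log axis, for 23 of the 24 genes below the product (left) and for the 33 genes above the sum with over 3 reads in every group (right); points are fitted values and lines 95% intervals. The left-hand genes run from 0.847 for IRF9 to 1.603 for IFIT3, with most lines crossing 1, and the right-hand genes from 1.58 for MX2 to 48.6 for CXCL11.

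Of the 43 genes above the sum 14 belong to a list of GAS-type and IRF1 targets, 3 are CXCR3 ligands within it, 5 are other chemokines, 6 are in a list of NF-kB targets and 6 in the antiviral list, and some lists share members. Their levels with both treatments were between 1.58 and 140.7 times the sum, with a median of 3.29. Interferon alone raised 27 of them, against 1.62% of tested genes, and doxycycline alone 22, against 0.719%, while 11 were raised by neither. All 43 were higher with both treatments than with interferon alone, against 1.07% of tested genes. These contrasts share libraries with the interaction that chose the genes, so nothing is read from their counts. For 9 of the 43 (CCL4, CCL8, CCL20, CXCL9, FAM65B, GBP5, MMP13, RTP4 and TNFSF13B) the group with both treatments alone carried the gene past the filter on low counts, so these had to differ to be tested, and for 10 a group held 3 or fewer reads. Among the other 33, log2 interactions were positive in 25 and negative in 8, with WARS the only one called above the product.

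The CXCR3 ligands, chemokines that draw activated T cells and natural killer cells, were all 3 above the sum. CXCL10 was read at 1.04 and 1.97 CPM untreated, 50.95 and 69.6 with interferon, 34.9 and 27.7 with doxycycline and 2785 and 2176 with both. The libraries with both treatments were the highest by far. The separate changes add to 90.1 CPM, and the excess over that sum was 2390.2 ± 194 CPM (Wald adjusted p = 0.00024), a level 27.5 times the sum (95% interval 21.9 to 34.6). The separate folds multiply to 1243 CPM, and the log2 interaction of 1.01 ± 0.48 missed the threshold (edgeR adjusted p = 1).

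CXCL11 was read at 0.19 and 0.179 CPM untreated, 3.99 and 3.35 with interferon, 3.003 and 3.14 with doxycycline and 365 and 272 with both. No other group reached 5 CPM. Its excess was 312 ± 19.3 CPM (Wald adjusted p = 8.8e-05), 48.6 times the sum (95% interval 37.7 to 62.6), with a log2 interaction of 2.46 ± 0.99 (edgeR adjusted p = 1). Each untreated library lay below its level of 3 reads (0.285 and 0.268 CPM), so this log2 interaction is uncertain. CXCL9 was read at 0.095 and 0.0895 CPM untreated, 0.399 and 0.574 with interferon, 0.751 and 0.85 with doxycycline and 64.5 and 52.9 with both. Only the libraries with both treatments passed 1 CPM. The untreated group held 2 CXCL9 reads, so no log2 interaction is given. CXCL9 entered the test only through the group where it is high, and its excess over the sum was 57.5 ± 4.21 CPM (Wald adjusted p = 0.00017).

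Of 8 other chemokines tested 5 were above the sum, against 0.295% of all tested genes. Among these 5, 3 (CCL4, CCL8 and CCL20) entered the test only through the libraries with both treatments. CCL8, a monocyte attractant, was read at 0 and 0 CPM untreated, 0.0997 and 0 with interferon, 0.417 and 0.17 with doxycycline and 54.03 and 42.6 with both. It was nearly absent outside the combined treatment, with 0 reads in untreated cells, 1 with interferon and 7 with doxycycline against 928 with both. Its excess was 47.98 ± 4.57 CPM (Wald adjusted p = 0.0014), and the ratio of 140.7 to a sum made of so few reads is uncertain. CCL2, another monocyte attractant, had means of 1.51, 2.01, 3.83 and 18.5 CPM and an excess of 14.2 ± 1.84 CPM (Wald adjusted p = 0.0069). CCL4, CCL20 and IL8 were above the sum by 8.74, 5.25 and 4.17 CPM, with 1, 0 and 2 reads in untreated cells. CCL4 can share reads with its near-identical copies. CCL2, CCL4 and CCL8 lost their calls without either library of both treatments (excess 13.9 to 14.6, 8.61 to 8.99 and 42.6 to 53.9 CPM), CCL20 without either interferon library or either both-treatments library (4.82 to 5.74 CPM) and IL8 without the second untreated library, either interferon library, either doxycycline library or either both-treatments library (3.51 to 4.88 CPM). IL8 was also lost with summed transcript rows (Wald adjusted p = 0.1) and with limma (adjusted p = 0.052). CCL5, CXCL16 and CX3CL1 were not called, with excesses of 6.70 ± 1.41 CPM, 1.51 ± 0.726 CPM and 0.866 ± 1.08 CPM.

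Guanylate-binding proteins, GTPases that attack the membranes of intracellular pathogens, were above the sum from GBP1 through GBP5. GBP1 was read at 23.9 and 20.04 CPM untreated, 154 and 174 with interferon, 57.5 and 54.7 with doxycycline and 657 and 577 with both. The groups did not overlap and those with both treatments were highest. Its excess was 418 ± 32.02 CPM (Wald adjusted p = 0.0002), 3.11 times the sum (95% interval 2.68 to 3.61), with a log2 interaction of 0.56 ± 0.16 (edgeR adjusted p = 1). GBP2 and GBP4 had excesses of 64.6 ± 6.001 CPM and 86.4 ± 8.54 CPM (Wald adjusted p = 0.00072 and 0.0012), and each lost its call without the first library of both treatments (62.1 to 68.1 and 80.4 to 93.7 CPM over the libraries left out). GBP3 was above the sum by 40.7 ± 4.54 CPM, a call lost without either both-treatments library (36.4 to 45.7 CPM), and GBP5 by 35.3 ± 3.58 CPM, lost without the first both-treatments library (29.8 to 41.2 CPM). GBP5 was read at 0.57 and 0.268 CPM untreated, 0.897 and 1.34 with interferon, 0.751 and 0.595 with doxycycline and 42.4 and 30.95 with both, so it was near absent without the combined treatment and entered the test only through it. These genes share sequence and lie close together, so reads could be split between them.

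IDO1, which degrades tryptophan, was read at 0.19 and 0.0895 CPM untreated, 2.29 and 2.58 with interferon, 0.667 and 0.595 with doxycycline and 54.9 and 42.7 with both. Interferon alone gave a few CPM and the combined treatment far more. Its excess was 45.9 ± 3.87 CPM (Wald adjusted p = 0.00031). The untreated group held 3 IDO1 reads, so no log2 interaction is given.

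WARS, the tryptophanyl-tRNA synthetase, which interferon gamma is known to induce, was read at 55.1 and 62.3 CPM untreated, 73.9 and 93.1 with interferon, 61.1 and 53.8 with doxycycline and 173 and 170.1 with both. Doxycycline alone left it at the untreated level within the spread, and both libraries with both treatments stood above all others. It was the single gene above the product, with a log2 interaction of 1.07 ± 0.17 (edgeR adjusted p = 0.041), and its excess over the sum was 89.3 ± 12.1 CPM (Wald adjusted p = 0.0085). The log-scale call was lost without either untreated library, the first interferon library, either doxycycline library or either both-treatments library (0.92 to 1.26), and with the transcript row marked in the deposited table (edgeR adjusted p = 0.051). The linear-scale call was lost without either both-treatments library (80.3 to 100.2 CPM).

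IRF1, the transcription factor of this group of targets, was read at 4.84 and 4.92 CPM untreated, 10.8 and 12.7 with interferon, 5.17 and 7.39 with doxycycline and 37.3 and 41.2 with both. The libraries with both treatments were highest, and those with doxycycline lay close to the untreated ones. Its excess was 26.1 ± 3.47 CPM (Wald adjusted p = 0.0084) and its log2 interaction 1.38 ± 0.28 (edgeR adjusted p = 0.19). IRF1 lost its call without the first interferon library or either both-treatments library (24.3 to 28.3 CPM). Of 6 interferon regulatory factors tested it was the only one called. IRF7 had means of 4.84, 38.96, 9.79 and 34.9 CPM and an excess of -9.08 ± 7.05 CPM (Wald adjusted p = 1).

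Over all 20 tested GAS-type and IRF1 targets 14 were above the sum, 1 above the product and 0 below either, with medians of 0.87 for the log2 interaction of the 17 members above 3 reads in every group and 1.66 for the log2 ratio to the sum. Of all tested genes 0.295% were above the sum, but interferon alone raised 15 of these 20 targets, against 1.62% of tested genes. Only the libraries with both treatments carried 3 of the 20 past the filter. The other called members were APOL1, APOL3 and ICAM1. The APOL1 excess of 13.2 ± 1.78 CPM lost its call without the second interferon library or either both-treatments library (12.02 to 14.5 CPM), and the APOL3 excess of 11.4 ± 1.44 CPM without either both-treatments library (11.2 to 11.8 CPM).

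TNFSF10 encodes TRAIL, a ligand that triggers apoptosis through the death receptors TNFRSF10A and TNFRSF10B. It was read at 0.76 and 0.537 CPM untreated, 4.29 and 4.21 with interferon, 1.75 and 1.70 with doxycycline and 91.8 and 68.1 with both. Each treatment alone left it under 5 CPM, and both libraries with both treatments stood above 68. Its excess over the sum was 74.7 ± 5.98 CPM (Wald adjusted p = 0.00024), 15.01 times the sum (95% interval 11.2 to 20.1). Its log2 interaction of 2.83 ± 0.51 missed the threshold (edgeR adjusted p = 0.089).

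The receptor TNFRSF10A was read at 16.8 and 14.4 CPM untreated, 16.9 and 13.4 with interferon, 18.1 and 16.2 with doxycycline and 15.8 and 18.8 with both, with groups that overlap. Its excess was 0.609 ± 2.79 CPM (Wald adjusted p = 1), with a 95% interval from -5.54 to 6.75 CPM. TNFRSF10B had means of 181, 209.7, 217 and 273 CPM and an excess of 27.5 ± 19.7 CPM (95% interval -15.8 to 70.9 CPM). The decoy receptor TNFRSF10D fell with interferon alone by 2.78 on the log2 scale (edgeR adjusted p = 2e-08), as 0.5% of tested genes did, and its means of 119, 17.4, 119 and 19.96 CPM gave a log2 interaction of 0.20 ± 0.15. Of 14 TRAIL and death receptor genes tested, TNFSF10 was the only one called on either scale, and the list's median log2 interaction was 0.19. The apoptosis receptor FAS had an excess of 14.4 ± 4.14 CPM (Wald adjusted p = 0.73).

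Of 14 NF-kB subunits and feedback inhibitors 2 were above the sum, and of 14 NF-kB targets 6, against 0.295% of all tested genes. CCL20, 1 of these 6 targets, passed the filter on low counts only through the libraries with both treatments. NFKBIA, the inhibitor that holds NF-kB in the cytoplasm, was read at 26.3 and 26.3 CPM untreated, 53.5 and 55.8 with interferon, 64.4 and 63.2 with doxycycline and 159.9 and 163 with both. Interferon and doxycycline alone gave similar levels, and the combined treatment was highest with little spread. Its excess was 69.3 ± 7.56 CPM (Wald adjusted p = 0.0022), 1.75 times the sum, and its log2 interaction 0.28 ± 0.13 (edgeR adjusted p = 1). It lost its call without the first both-treatments library (68.3 to 72.3 CPM). TNFAIP3, the ubiquitin-editing inhibitor A20, had an excess of 5.80 ± 1.01 CPM (Wald adjusted p = 0.044) which was no longer called without each library in turn (5.06 to 6.67 CPM), nor with a stricter filter, summed rows or the marked row (Wald adjusted p = 0.051, 0.091 and 0.06). The subunit NFKB1 had means of 13.1, 17.5, 23.8 and 42.1 CPM and was not called (excess 13.8 ± 3.25 CPM, Wald adjusted p = 0.26).

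Among the NF-kB targets, ICAM1, an adhesion molecule for leukocytes, was read at 6.46 and 3.58 CPM untreated, 13.9 and 11.2 with interferon, 15.4 and 20.4 with doxycycline and 77.7 and 85.6 with both. Both libraries with both treatments were far above all others. Its excess was 56.2 ± 7.94 CPM (Wald adjusted p = 0.011), lost without either interferon library or either both-treatments library (52.7 to 60.9 CPM). SELE, the selectin E-selectin, had 4 reads with interferon against 0 in untreated cells, and was read at 3.59 and 2.97 CPM with doxycycline and 31.9 and 31.3 with both. Its excess was 28.1 ± 3.57 CPM (Wald adjusted p = 0.0085), lost without either both-treatments library (27.7 to 28.5 CPM). BIRC3, an apoptosis inhibitor, and IER3, an early response gene, had excesses of 29.5 ± 4.81 CPM and 13.2 ± 2.20 CPM (Wald adjusted p = 0.029 and 0.034). The BIRC3 call was lost without either interferon library, either doxycycline library or either both-treatments library (22.8 to 36.9 CPM). The IER3 call was lost without each library in turn (12.7 to 14.1 CPM). Both calls were also lost with summed rows (Wald adjusted p = 0.081 and 0.06), and that of BIRC3 with limma (adjusted p = 0.14). The adhesion molecule VCAM1 did not pass (17.6 ± 3.23 CPM, Wald adjusted p = 0.06). The median log2 interaction of the 10 targets above 3 reads in every group was 0.84, and the list's median log2 ratio to the sum was 1.42.

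In the presentation of antigen by MHC class I, TAP1 was the only one of 22 genes called on either scale. TAP1, a subunit of the peptide transporter, was read at 14.5 and 11.01 CPM untreated, 143 and 150.3 with interferon, 27.8 and 30.6 with doxycycline and 273 and 280.3 with both. The groups did not overlap. Its excess was 114 ± 15.7 CPM (Wald adjusted p = 0.0099), 1.70 times the sum, lost without either interferon library or either both-treatments library (110.3 to 118 CPM). HLA-B shares sequence with other HLA genes, so its reads are uncertain. It had means of 46.6, 440.3, 91.5 and 679 CPM and an excess of 194 ± 43.7 CPM that did not pass (Wald adjusted p = 0.2). The list's median log2 interaction was -0.06. None of 10 class II genes was called by either test, and the list's median was -0.10.

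Complement C3 was the only one of 12 complement genes called, with means of 1.58, 4.10, 6.95 and 37.3 CPM and an excess of 27.8 ± 3.36 CPM (Wald adjusted p = 0.0043), lost without either both-treatments library (25.7 to 30.5 CPM). The collagenase MMP13, the only one called of 13 matrix metalloprotease and inhibitor genes, had 430 reads with both treatments against 8 with doxycycline, 12 with interferon and 0 untreated, so it entered the test only through the group where it is high. Its excess was 21.5 ± 3.06 CPM (Wald adjusted p = 0.018), lost without either both-treatments library (18.6 to 24.6 CPM) and with summed rows (12.3 CPM, Wald adjusted p = 0.063). NT5C3, a pyrimidine nucleotidase, had means of 43.9, 73.5, 44.2 and 146 CPM and an excess of 72.2 ± 11.4 CPM (Wald adjusted p = 0.024), lost without the second untreated library, the first interferon library or the first both-treatments library (54.4 to 91.5 CPM) and with limma (adjusted p = 0.19). TNFSF13B, the B cell survival factor BAFF, was chosen after its values were seen. It was read at 0.665 and 0.716 CPM untreated, 0.598 and 1.34 with interferon, 0.584 and 0.425 with doxycycline and 7.86 and 7.06 with both, entered the test only through the libraries with both treatments, and had an excess of 6.68 ± 0.98 CPM (Wald adjusted p = 0.015), lost without either both-treatments library (6.33 to 7.11 CPM). EFNA1, an ephrin ligand also chosen after its values were seen, had means of 14.005, 19.6, 26.3 and 70.1 CPM and an excess of 38.2 ± 5.52 CPM, lost without either interferon library or either both-treatments library (31.1 to 46.3 CPM) and with limma (adjusted p = 0.078).

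Upstream in the pathway, IRF9 was called below the product. STAT2 had means of 115, 567, 207 and 776 CPM and a log2 interaction of -0.40 ± 0.16 (edgeR adjusted p = 1), and the feedback protease USP18 had 8.08, 57.6, 12.9 and 63.3 CPM and an interaction of -0.54 ± 0.21 (edgeR adjusted p = 1). The median log2 interaction of 19 JAK-STAT genes was 0.07. None of 22 ATF4 amino acid response genes, 18 chaperones of the endoplasmic reticulum, 20 DNA replication genes, 20 mitosis genes, 19 histone genes, 32 ribosomal protein genes or 19 cholesterol synthesis genes was called by the edgeR or the Wald test. Their median log2 interactions ran from -0.15 for cholesterol synthesis to 0.01 for mitosis. CHAC1, an ATF4 target that degrades glutathione, had a log2 interaction of -1.60 ± 0.35 (edgeR adjusted p = 0.27). Targets of EWSR1-FLI1, the fusion that drives Ewing sarcoma, were not called either, with medians of 0.07 for 20 activated and 0.30 for 11 repressed genes.

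**Figure D4:**
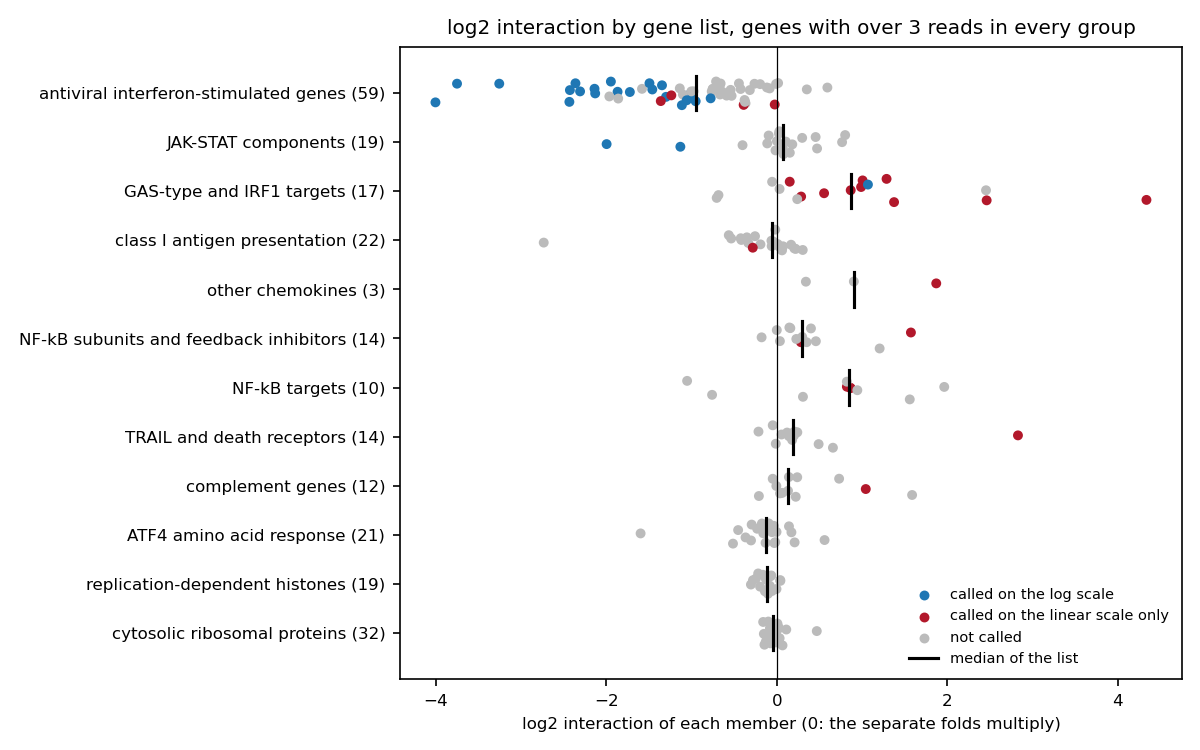
log2 interaction of each member of 12 gene lists with over 3 reads in every group (points, with a small random vertical offset), coloured by the scale on which it was called, with the list's median as a black bar; 0 on the horizontal axis is where the separate folds multiply. Antiviral genes lie to the left with a median of -0.95, GAS-type and IRF1 targets to the right with a median of 0.87, and ribosomal proteins around -0.04.

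The rows used held 9304569 to 11984196 reads per library, and 3 reads in a library corresponded to 0.25 to 0.326 CPM. Counts of the 2 replicates differed beyond sampling noise (chi-square over its degrees of freedom 3.91 to 8.05 in the 4 groups), so none was treated as a duplicate. All 9 Ewing sarcoma markers had a mean of at least 1 CPM, summing to 1751 to 2522 CPM per library. Among 6 leukocyte markers 3, including CD3E and CD14, stayed under 1 CPM in every library, and the sum was 3.76 to 6.46 CPM. For 4 endothelial markers it was 0.652 to 2.09 CPM, and for 5 fibroblast markers 61.7 to 88.1. The leukocyte sums averaged 5.11, 5.12, 4.34 and 4.80 CPM over the 4 groups, while CXCL10, ICAM1 and SELE, genes that leukocytes or endothelium also express, were highest with both treatments. The part of other cell types in these results was not tested.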

How the data were processed

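The deposited table holds read counts per transcript, whole numbers with no normalisation, for 34917 rows under 22257 gene symbols, and 30.4% of symbols had several rows. The submitters' processing notes name CASAVA 1.8.2, edgeR and the hg19 build without their roles. The kit was for stranded total RNA per the labels' protocols, but the aligner, the counter and any use of strand were not given in the sources used here, so genes and antisense partners cannot be told apart. For a gene with several rows the row with the highest total was kept, since rows may count the same reads, which was not measured. The rows kept held 57.1% of the reads over all rows.

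All 8 libraries entered 1 edgeR 4.0.16 model (R 4.3.3) with trimmed mean of M values scaling, the default filter (10 reads), 1 mean per group and 4 residual degrees of freedom. The log2 interaction used the quasi-likelihood F test. The linear interaction used fitted CPM, a delta-method standard error and a two-sided Wald test with the t distribution. Both were adjusted by Benjamini-Hochberg over 14601 genes. Values after ± are standard errors. For log2 values they were worked back from the test, as the absolute log2 value divided by the square root of its F statistic. Intervals and read floors of 3 reads cover these libraries and counting only. Where a group held 3 or fewer reads no log2 interaction is printed. Both tests were checked on simulated counts. Changes were simulated only in genes above a minimum mean level. Genes with almost no reads in a group were left out of the unchanged genes on the log scale. The check therefore says little about calls in genes with few reads.

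Named genes are USP6, up to 15 called genes per direction and scale averaging at least 1 CPM, without pseudogenes, up to 4 members of each list by the log-scale p, and the cytokine, receptor and signalling genes TNFSF10, TNFRSF10A, TNFRSF10B, CXCL9, CXCL10, CXCL11, STAT2, IRF1, IRF9, NFKBIA, MX1, OAS2, IFIT1, ISG15 and IFI27. Other names were chosen after their values were seen. The comparison, members and 29 lists were chosen with earlier results of these data known. A single gene called on the log scale is not reported here but was kept in all tests, counts and medians. Promoters and gene types come from RefSeq (GRCh38.p14), and GC content and length from GENCODE v29 transcripts. Alternatives were other size factors, filters and rows, DESeq2 1.42.0, limma 3.58.1, a replicate block, a GC and length correction (loess, span 0.3) and leaving out each library.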

Additional observations from a re-analysis of the deposited data

Results flagged for a closer look

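The response to interferon differed between cells with and without doxycycline, by the test of the difference itself, in the genes below. Each gene is listed under the scale on which it was called. On the log scale (edgeR quasi-likelihood test, adjusted p under 0.05) the log2 interactions were -4.001 for OAS2, -3.75 for EPSTI1, -3.25 for MX1, -2.43 for OAS1, -2.42 for IFI6, -2.36 for XAF1, -2.31 for IFI27, -2.14 for IFI44L, -2.13 for IFIT1, -1.99 for IRF9, -1.94 for MX2, -1.87 for HERC6, -1.72 for IFIT3, -1.49 for OAS3, -1.46 for IFITM1, -1.35 for SAMD9, -1.30 for DDX60, -1.11 for DDX58, -1.06 for ZC3HAV1, -1.01 for PLSCR1, -1.01 for IFI44, -0.95 for PARP9, -0.77 for SP110 and 1.07 for WARS.

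On the linear scale (Wald test on fitted CPM, adjusted p under 0.05) the differences from the sum of the separate changes were, in CPM, -171 for USP6, 4.17 for IL8, 4.37 for FAM65B, 5.25 for CCL20, 5.80 for TNFAIP3, 6.68 for TNFSF13B, 7.67 for RTP4, 8.74 for CCL4, 11.4 for APOL3, 13.2 for APOL1, 13.2 for IER3, 14.2 for CCL2, 20.4 for GBP1P1, 21.03 for RASGRP3, 21.5 for MMP13, 22.4 for LAMP3, 26.1 for IRF1, 27.8 for C3, 28.1 for SELE, 29.5 for BIRC3, 33.5 for NCOA7, 34.9 for LOC100507463, 35.3 for GBP5, 36.8 for OASL, 38.2 for EFNA1, 40.7 for GBP3, 45.9 for IDO1, 47.98 for CCL8, 56.2 for ICAM1, 57.5 for CXCL9, 57.8 for MX2, 64.6 for GBP2, 69.3 for NFKBIA, 72.2 for NT5C3, 74.7 for TNFSF10, 86.4 for GBP4, 89.3 for WARS, 105 for TRIM22, 114 for TAP1, 176 for RSAD2, 304 for IFIT2, 312 for CXCL11, 418 for GBP1 and 2390.2 for CXCL10. A call on the linear scale need not mean a different fold: the log2 interaction of IFIT2 was -0.02. CCL4, CCL8, CCL20, CXCL9, FAM65B, GBP5, MMP13, RTP4 and TNFSF13B passed the filter on low counts only through the libraries with both treatments. These genes had to differ to be tested, so nothing further is read from their calls. LOC100507463 is given by its symbol only, and GBP1P1 is a pseudogene that can share reads with GBP1.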

How the results depend on the processing

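No called gene reversed direction under any alternative. The 25 log-scale calls (1 higher, 24 lower) became 48 (9 and 39) after the GC and length correction and 43 (7 and 36) with DESeq2. The higher calls numbered 6 with no filter, 4 with summed rows and 0 with the marked transcript row, an alternative added after seeing the data. The 44 linear-scale calls (43 higher, 1 lower) became 88 (87 higher) after the GC and length correction, and were between 37 and 59 with other size factors, filters, rows and limma. Leaving out 1 library gave 9 to 20 log-scale calls (0 to 2 higher, 9 to 20 lower) and 8 to 44 linear-scale calls (8 to 43 higher, 0 to 1 lower); a group left with 1 library was assumed to vary like the others. Summing transcript rows ended 3 log-scale and 7 linear-scale calls. Calls held in every alternative for 9 log-scale genes (OAS2, EPSTI1, MX1, OAS1, IFI6, IFI44L, IFIT1, IRF9 and HERC6) and 8 linear-scale genes (CXCL9, CXCL10, CXCL11, GBP1, IFIT2, RSAD2 and TNFSF10, and IDO1 in those that tested it, which leaves out the marked row). CXCL9 passed the filter on low counts only through the libraries with both treatments, so its holding in the alternatives adds no support. The median log2 interaction of all genes stayed between -0.02 and 0.02.

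Equal replicate numbers did not pair the samples across all 4 groups. Deviations of equal-numbered libraries correlated at 0.34 between untreated and interferon and at 0.45 between doxycycline and both. Across doxycycline they correlated at -0.35 to -0.12. The replicate block treated equal-numbered libraries alike in all 4 groups, so it does not model this pattern. Pairing within cells with or without doxycycline was not tested. The replicate block gave 17 log-scale calls (0 higher, 17 lower) and 25 linear-scale calls (25 higher, 0 lower), without 8 of the log-scale calls (IFITM1, OAS3, WARS and XAF1 among them) and 19 of the linear-scale calls (USP6, ICAM1, SELE, TAP1 and MMP13 among them), and with the block and the GC and length correction 49 (8 and 41) and 93 (92 higher). At this depth, log-scale values of genes near the 3-read floor are uncertain. None is given where a group held 3 or fewer reads.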

Other observations

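Further genes below the product were chosen after their values were seen. Of these, DDX58, DDX60 and ZC3HAV1 are linked to the sensing or decay of viral RNA. DDX58, the RNA sensor RIG-I, was read at 31.4 and 30.6 CPM untreated, 467 and 458 with interferon, 109 and 93.4 with doxycycline and 756 and 639 with both, with a log2 interaction of -1.11 ± 0.15 (edgeR adjusted p = 0.016) and a level 1.31 times the sum (95% interval 1.13 to 1.52). Its libraries with both treatments were above those with interferon alone. The related helicase DDX60 had means of 31.8, 352, 111 and 499.9 CPM in the order untreated, interferon, doxycycline and both, and a log2 interaction of -1.30 ± 0.16 (edgeR adjusted p = 0.0091). ZC3HAV1, which directs viral RNA to decay, was read at 43.9 and 40.2 CPM untreated, 165 and 148 with interferon, 112 and 106 with doxycycline and 205 and 185 with both, with a log2 interaction of -1.06 ± 0.14 (edgeR adjusted p = 0.011). The groups of ZC3HAV1 did not overlap, and each step between them was modest beside OAS2. SAMD9, PARP9, PLSCR1, IFI44 and SP110 had log2 interactions between -1.35 and -0.77. With 1 library left out in turn, DDX58 was not called for 5 of 8 libraries, DDX60 and ZC3HAV1 for 3 each, SAMD9, PARP9, PLSCR1 and IFI44 for 6 each and SP110 for all 8. With summed transcript rows PLSCR1 and IFI44 were not called (edgeR adjusted p = 0.052 and 0.071), and with relative log expression size factors SP110 was not (edgeR adjusted p = 0.051).

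Of 8 immune checkpoint and suppressor genes, IDO1 was called. CD274, the checkpoint ligand PD-L1, was read at 0 and 0.447 CPM untreated, 0.598 and 0.574 with interferon, 0.584 and 0.51 with doxycycline and 8.37 and 6.73 with both. It passed the filter on low counts only through the libraries with both treatments, and its excess over the sum of 6.66 ± 1.19 CPM just missed the threshold (Wald adjusted p = 0.052). Among inflammasome genes CASP1, the caspase that processes interleukins, had 0 reads in untreated cells and was read at 4.29 and 4.30 CPM with interferon, 0.417 and 0.51 with doxycycline and 12.7 and 10.97 with both. Its excess of 7.08 ± 1.27 CPM was not called (Wald adjusted p = 0.069). ATF3, a stress-response transcription factor, had means of 5.48, 11.5, 10.5 and 32.7 CPM and an excess of 16.1 ± 2.87 CPM (Wald adjusted p = 0.052).

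Among genes above the sum outside the lists, LAMP3, a lysosomal membrane protein of mature dendritic cells, had means of 4.33, 14.9, 7.87 and 40.8 CPM and an excess of 22.4 ± 2.87 CPM (Wald adjusted p = 0.0065). RASGRP3, an activator of Ras, had means of 0.738, 11.4, 2.86 and 34.5 CPM and an excess of 21.03 ± 3.22 CPM (Wald adjusted p = 0.02). FAM65B was read at 0.76 and 0.358 CPM untreated, 0.598 and 0.383 with interferon, 0.417 and 0.51 with doxycycline and 4.33 and 5.21 with both, so that it was under 1 CPM in every library without both treatments and entered the test only through the group where it is high, and its excess was 4.37 ± 0.694 CPM (Wald adjusted p = 0.024). All 3 were chosen after their values were seen. LAMP3 was no longer called without either both-treatments library (21.8 to 23.4 CPM), RASGRP3 without either interferon library or either both-treatments library (16.3 to 26.001 CPM) or with limma (adjusted p = 0.084), and FAM65B without either interferon library, the first doxycycline library or either both-treatments library (3.96 to 4.86 CPM).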
